A study of Mus musculus with 9 samples.

Results

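Hif3a and 9 genes of the glucocorticoid response were followed through the brains of 9 mice, as 10 of the 38621 genes in the RPKM table. Hif3a was chosen by its measured levels, because its group mean stepped up from sham to ICH to feb, so its group values are given here as a description with no test. The other genes were chosen as known members of the glucocorticoid response in brain, together with the receptor itself: Nr3c1, Fkbp5, Zbtb16, Tsc22d3, Sgk1, Plin4, Pdk4, Mt1, and Mt2. They were picked with earlier results of these data known, so their counts below do not come from an independent choice. All 10 genes passed the filter on low values, which kept 29025 genes.

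The mice were male C57BL/6, split evenly into 3 groups of 3 named sham, ICH, and feb, and each sample was total RNA from the brain of 1 mouse. ICH is intracerebral hemorrhage, modeled by an injection of 30 μl of the animal's own blood into the brain. The sham mice, whose label reads untreated, received saline in its place according to the study's methods. The feb mice took febuxostat, which inhibits xanthine oxidase and is used against gout, by gavage at 50 mg/kg once a day for 5 days and then received the blood, so that ICH and feb differ in the drug and sham and feb differ in both the drug and the blood. All animals were anesthetized with chloral hydrate according to the methods. The age of the mice, the brain region dissected, the hour of collection, and the time between the injection and the collection of these samples are not given in the sources used here. The injection is a mechanical model of a bleed, and handling by gavage is stated for the feb mice alone.

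Glucocorticoids, of which corticosterone is the main one in mice, are adrenal steroid hormones released in stress and with the time of day. They bind the glucocorticoid receptor, the product of Nr3c1, which waits in the cytoplasm in a complex with Hsp90 and its co-chaperones, then enters the nucleus and switches on genes near glucocorticoid response elements. Hif3a encodes HIF-3α, a member of the family of hypoxia-inducible factors, of which several splice forms lack the domain that activates transcription and dampen the action of the other HIF-α proteins.

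Between 23065757 and 29538009 reads were counted on genes per mouse, and the 3 feb mice had 26473236, 25245241, and 23065757. In bulk tissue, fewer cells of a type and less RNA per cell cannot be told apart. All 8 markers of the choroid plexus, the tissue in the ventricles that makes cerebrospinal fluid, were lower in feb than in ICH by the criteria defined below, and their summed RPKM was 30.6, 56.1, and 88.4 in feb 1, feb 2, and feb 3, 458 to 967 in ICH, and 365 to 1035 in sham. The summed RPKM of 5 blood markers was 17.1 to 21.6 in feb and 32.3 to 40.6 in sham. It was 124, 27.7, and 26.7 in ICH 1, ICH 2, and ICH 3, so the high value was that of ICH 1 alone. Of these markers Alas2 went the other way, with group means of 3.17, 3.85, and 5.48 RPKM in sham, ICH, and feb. Marker levels therefore differed between groups, and their part in the results below was not tested. The neuron markers Snap25, Rbfox3, Syt1, and Map2 summed to between 439 and 534 RPKM in all 9 mice, so neuronal genes were present in every sample, as its brain label says.

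The main pattern was carried by individual mice within the feb group. The glucocorticoid-induced genes were at their highest in feb 1 and feb 3, while feb 2 stayed close to the ICH mice for most of them. In 8 of the 9 genes other than Hif3a, feb 1 and feb 3 were both above each of the other 7 mice, and Nr3c1 was the exception. The same held for 6.44% of all 29025 genes tested. Because feb 1 and feb 3 were picked out after their values were seen, this count is a description and not a test.

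**Figure D1:**
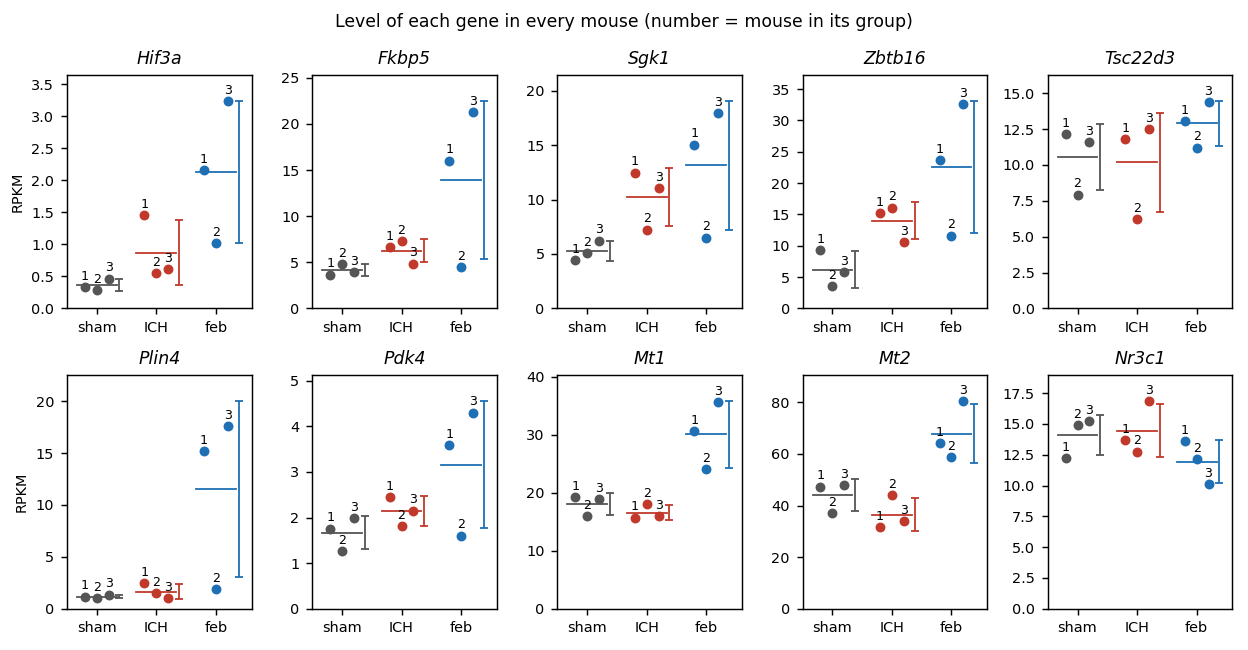
RPKM (vertical axis, from 0) of each of the 10 genes in the sham, ICH, and feb groups, with 1 point per mouse numbered within its group, a horizontal line at the group mean, and a bar beside it for 1 SD (n = 3). In 9 of the 10 panels feb 1 and feb 3 are the 2 highest points, and in Nr3c1 they are not.

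Hif3a, at chr7:17031507-17062427 on the minus strand of GRCm38 (exon length 6710 bases), was the least abundant of the 10 genes. Its RPKM was 0.333, 0.285, and 0.467 in sham, 1.46, 0.550, and 0.609 in ICH, and 2.16, 1.02, and 3.24 in feb. The values rested on 50 to 501 reads per mouse. All sham mice lay below all other mice, whereas ICH 1 lay above feb 2, so the step from ICH to feb was not shared by every mouse. The group means were 0.361 ± 0.0940 (SD, n = 3), 0.873 ± 0.510, and 2.14 ± 1.11 RPKM. The mean of ICH was 2.42 times that of sham, and the mean of feb was 2.45 times that of ICH and 5.91 times that of sham. Without ICH 1 the log2 fold change of ICH against sham was 0.58 in place of 0.98.

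The promoter of Hif3a is shown because this gene gave the set its name. Among the 250 bases before the RefSeq start (GRCm38.p6, chr7:17062428-17062677, minus strand), capitals mark the core of the hypoxia response element, ACGTG or GCGTG on either strand, to which HIF dimers are known to bind. The core began 230 bases (on the opposite strand) and 186 bases before the start. It is short, and 43.8% of the 32851 promoter windows of the same length, from 250 bases before to 50 bases after a start, hold it. Of the 15 windows found for 8 of the 10 genes, 10 hold it, in 7 genes, so it is not particular to Hif3a. A metal response core, of the form given below, lies at -174 to -168 on the opposite strand and is not marked. No glucocorticoid response element of the 2 forms given below was found in this window, which says nothing about other positions.
Hif3a: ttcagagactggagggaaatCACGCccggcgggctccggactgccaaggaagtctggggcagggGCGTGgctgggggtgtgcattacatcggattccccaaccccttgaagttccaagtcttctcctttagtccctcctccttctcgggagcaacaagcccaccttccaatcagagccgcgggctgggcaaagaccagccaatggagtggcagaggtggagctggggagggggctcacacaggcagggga

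Fkbp5 encodes FKBP51, a co-chaperone of the receptor complex that lowers the receptor's affinity for hormone, and its induction by the receptor is a well-known feedback loop and a common readout of glucocorticoid exposure. It lies at chr17:28399095-28517524 on the minus strand. The RPKM was 3.67, 4.85, and 3.92 in sham, 6.62, 7.26, and 4.87 in ICH, and 16.0, 4.44, and 21.3 in feb. The ICH mice lay narrowly above the sham mice, and the feb group was split, with feb 2 inside the sham range and the other 2 mice above all others. Group means were 4.15 ± 0.619, 6.25 ± 1.24, and 13.9 ± 8.61 RPKM (SD, n = 3). Fkbp5 was 3.61 times as high in feb 1 as in feb 2, and 4.79 times as high in feb 3.

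Nr3c1, the gene for the glucocorticoid receptor on chromosome 18, showed no such split. Its RPKM was 12.2, 14.9, and 15.2 in sham, 13.7, 12.8, and 16.9 in ICH, and 13.6, 12.1, and 10.1 in feb. The 3 groups overlapped, and the highest value of the 9 was 1.67 times the lowest. The log2 fold change of feb against ICH was -0.27 (95% interval -0.61 to 0.06), with an adjusted p of 0.52 by limma.

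Zbtb16, at chr9:48654297-48836222 on the minus strand, encodes PLZF, a zinc finger transcription repressor that glucocorticoids and progestins induce in many cells. The RPKM was 9.31, 3.56, and 5.77 in sham, 15.3, 16.1, and 10.6 in ICH, and 23.6, 11.6, and 32.6 in feb. The sham mice were the lowest, all ICH mice lay above them, and feb 2 fell within the ICH range. Group means were 6.21 ± 2.90, 14.0 ± 2.94, and 22.6 ± 10.6 RPKM (SD, n = 3). Zbtb16 was the one gene of the 9 that differed between ICH and sham by the study's criteria.

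Tsc22d3, at chrX:140539528-140600659 on the minus strand, encodes GILZ, a leucine zipper protein that carries part of the anti-inflammatory action of glucocorticoids. The RPKM was 12.1, 7.94, and 11.6 in sham, 11.8, 6.24, and 12.5 in ICH, and 13.1, 11.2, and 14.4 in feb. Values were low in sham 2 and ICH 2, and the 3 groups overlapped. Although feb 1 and feb 3 were again the 2 highest mice, feb 3 was only 1.28 times feb 2, much less than the ratio of 4.79 in Fkbp5.

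Sgk1 encodes a serum- and glucocorticoid-regulated kinase that controls ion channels and transporters, and it is an early target of the receptor in neurons and glia. It lies at chr10:21882184-21999903 on the plus strand. The RPKM was 4.44, 5.06, and 6.23 in sham, 12.5, 7.24, and 11.0 in ICH, and 15.1, 6.50, and 17.9 in feb. All ICH and feb mice were above all sham mice, and feb 2 was below every ICH mouse. Group means were 5.24 ± 0.906, 10.2 ± 2.70, and 13.1 ± 5.94 RPKM (SD, n = 3).

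A promoter of Sgk1 is shown because it was the only window of the set with a full palindromic glucocorticoid response element. RefSeq lists 6 starts of Sgk1, and capitals mark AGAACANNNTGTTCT, searched on both strands, in the 250 bases before the fifth of them (GRCm38.p6, chr10:21993640-21993889, plus strand). The element spans the positions -189 to -175 from the start. Of all 32851 windows, 3 held it (0.00913%). A relaxed form, GNACANNNTGTNC, matched within the same letters and occurred in 0.475% of windows. Promoter windows were found for 8 of the 10 genes, 15 in all, and not for Zbtb16 and Nr3c1. The relaxed form was in 2 of these 15 windows, those of Sgk1 and Mt1, and the palindrome in 1. The RPKM values count all transcripts of Sgk1 together, so they do not tell which start was used.
Sgk1: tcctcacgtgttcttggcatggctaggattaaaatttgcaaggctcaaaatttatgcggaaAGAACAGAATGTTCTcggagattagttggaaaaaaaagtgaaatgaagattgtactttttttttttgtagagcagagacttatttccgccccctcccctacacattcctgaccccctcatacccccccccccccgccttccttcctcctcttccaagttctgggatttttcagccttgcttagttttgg

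Plin4 and Pdk4 act in the use of fat. Plin4, at chr17:56100591-56109803 on the minus strand, encodes perilipin 4, a coat protein of lipid droplets. The RPKM of Plin4 was 1.16, 0.993, and 1.35 in sham, 2.45, 1.47, and 1.03 in ICH, and 15.2, 1.87, and 17.6 in feb. Here the split of the feb group was the widest of the 10 genes, since feb 1 and feb 3 were 8.13 and 9.39 times feb 2, and feb 2 was 1.13 times the mean of ICH. Group means were 1.17 ± 0.181, 1.65 ± 0.728, and 11.6 ± 8.47 RPKM (SD, n = 3).

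Pdk4, at chr6:5483351-5496309 on the minus strand, encodes pyruvate dehydrogenase kinase 4, which shuts off the entry of pyruvate into the citric acid cycle in fasting. Its RPKM was 1.75, 1.26, and 1.99 in sham, 2.45, 1.81, and 2.15 in ICH, and 3.58, 1.60, and 4.30 in feb. The pattern was that of Plin4 at a smaller scale. The value in feb 2 was lower than in all ICH mice and within the sham range, and feb 1 and feb 3 were 2.24 and 2.68 times as high as feb 2.

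Mt1 and Mt2 encode metallothioneins, small proteins that bind zinc and copper, and both genes respond to metals as well as to glucocorticoids. They are neighbors on the plus strand of chromosome 8, Mt2 at chr8:94172664-94173568 and Mt1 at chr8:94179082-94180327. Mt1 RPKM was 19.3, 15.9, and 19.0 in sham, 15.7, 18.0, and 16.0 in ICH, and 30.6, 24.1, and 35.6 in feb. Mt2 RPKM was 47.3, 37.1, and 48.0 in sham, 31.7, 44.0, and 33.8 in ICH, and 64.2, 58.7, and 80.6 in feb. In both genes all 3 feb mice, feb 2 included, were above all sham and ICH mice, and this set them apart from the genes above. The ratio of feb 3 to feb 2 was 1.48 for Mt1 and 1.37 for Mt2. The value of Mt2 is uncertain, because 432 bases, 73.5% of its exon length, lie opposite exons of RP23-98C9.5 on the other strand, and the use of strand in counting is not given in the sources used here. RP23-98C9.5 had 8.08 to 10.5 RPKM in sham, 6.76 to 9.66 in ICH, and 12.7 to 17.6 in feb. Mt1 overlapped no exon of another gene in the table.

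The promoters of Mt1 and Mt2 are shown because the only genes with no overlap between feb and ICH were this pair of neighbors. Capitals mark the core of the metal response element, TGCACNC or TGCGCNC on either strand, in the 250 bases before each RefSeq start (GRCm38.p6, plus strand, chr8:94178839-94179088 for Mt1 and chr8:94172368-94172617 for Mt2). In Mt1 the longer run of capitals, which begins at -94, is instead the relaxed glucocorticoid response element, and the metal response core begins at -23. In Mt2 the metal response cores begin at -223, -128, and -50, the last on the opposite strand, and there is no relaxed glucocorticoid response element. A metal response core was in 25.7% of all windows, and in 4 of the 15 windows of the set, those of Mt1, Mt2, Hif3a, and Sgk1.
Mt1: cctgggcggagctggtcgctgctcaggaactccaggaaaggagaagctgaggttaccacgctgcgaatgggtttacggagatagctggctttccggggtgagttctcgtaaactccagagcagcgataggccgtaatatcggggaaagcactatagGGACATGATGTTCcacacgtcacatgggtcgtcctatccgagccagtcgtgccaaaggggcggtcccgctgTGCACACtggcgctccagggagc
Mt2: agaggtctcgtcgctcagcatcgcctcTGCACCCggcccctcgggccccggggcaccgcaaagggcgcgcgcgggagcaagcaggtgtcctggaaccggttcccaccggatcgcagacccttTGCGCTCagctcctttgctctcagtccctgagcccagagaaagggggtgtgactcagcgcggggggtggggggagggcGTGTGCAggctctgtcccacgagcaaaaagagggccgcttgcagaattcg

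The comparison of ICH with sham asks what the blood did to these genes without the drug. By the study's criteria (unadjusted p under 0.05 and a fold change over 2, here from limma on log2(RPKM + 0.1)), 1 of the 9 genes was higher in ICH, Zbtb16, and none was lower. Of all genes tested, 1.46% were called higher and 1.07% lower. The log2 fold change of Zbtb16 was 1.24 (SE 0.43), with an adjusted p of 0.36 by limma. Without sham 2 or without ICH 1 the count was 0, and without sham 3 it was 2, since Sgk1 was added. Without ICH 2 it was 1, but Sgk1 was called and Zbtb16 was not. By the p-value alone, 2 of 9 were higher, Zbtb16 and Sgk1, against 7.88% of all genes. In 3 of 9, Fkbp5, Sgk1, and Zbtb16, the ICH and sham values did not overlap and ICH was higher, which was the case for 13.2% of all genes. After Benjamini-Hochberg adjustment over all genes, 0 of 9 passed, and 0.0241% of all genes did. The lowest adjusted p of the 9 by limma was 0.36, and with reads and voom the count was also 0.

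The comparison of feb with ICH asks what febuxostat changed after the blood. Plin4 alone of the 9 genes met the criteria, with a log2 fold change of 2.29 (SE 0.75) and an adjusted p of 0.35 by limma, and this value was 3.31 without feb 2 and 1.73 without feb 3. The backgrounds were 1.38% called higher and 1.05% called lower. Without feb 1 or without feb 3 this count was 0. Without feb 2 it was 3, namely Fkbp5, Zbtb16, and Plin4, and without ICH 2 it was 2, Plin4 and Mt2. By the p-value alone, Plin4, Mt1, and Mt2 were higher (3 of 9, against 4.9% of all genes). Mt1 and Mt2 fell short of a 2-fold change, with log2 fold changes of 0.84 (95% interval 0.51 to 1.17) and 0.89 (0.51 to 1.27) and adjusted p of 0.18 and 0.21 by limma. They were also the only 2 of 9 in which all feb mice were above all ICH mice, as in 7.04% of all genes. Again 0 of 9 passed adjustment, and 0.00689% of all genes did. The adjusted p of these genes by limma ranged down to 0.073 when feb 2 was left out, and the count was 0 with voom as well.

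The comparison of feb with sham joins blood and drug, and it shares its samples with both comparisons above. Fkbp5, Sgk1, Zbtb16, and Plin4 were called higher, 4 of 9, against 1.59% of all genes, and 0 of 9 lower, against 0.613%. Their log2 fold changes were 1.46, 1.20, 1.83, and 2.69, each with an adjusted p of 0.56 by limma. Without feb 2, the value was 2.14 for Fkbp5 and 3.71 for Plin4. Without feb 3 the count was 2, Zbtb16 and Plin4, without feb 1 it was 3, and without feb 2 it was 5, with Pdk4 added. By the p-value alone, 7 of 9 were higher, all but Tsc22d3 and Nr3c1, against 5.63% of all genes. In 5 of 9, Sgk1, Zbtb16, Plin4, Mt1, and Mt2, the feb mice were all above the sham mice, against 7.78%. None (0 of 9) passed adjustment, as against 0.00345% of all genes, and the lowest adjusted p by limma was 0.48 for Mt1, or 0.0545 among the 9 genes when feb 2 was left out. Voom on the recovered reads also gave 0.

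**Figure D2:**
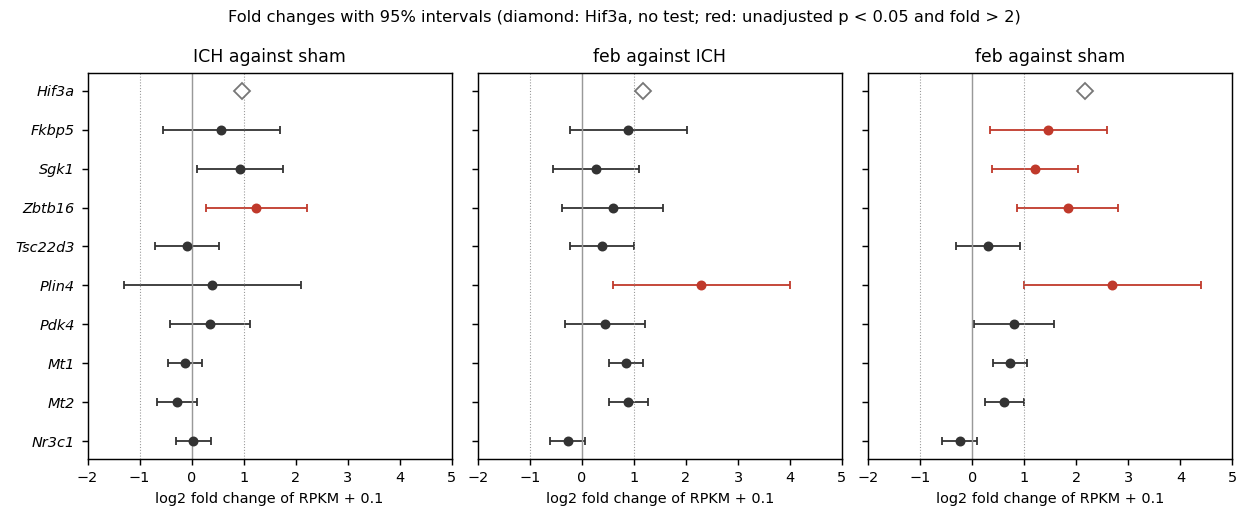
Log2 fold change of RPKM + 0.1 (horizontal axis) of each gene in the 3 comparisons, with 95% intervals from limma and dotted lines at a 2-fold change. Hif3a is an open diamond with no interval because its group levels chose it, and red marks genes that met the study's criteria, 1 in ICH against sham, 1 in feb against ICH, and 4 in feb against sham.

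The median log2 fold change of the 9 genes was 0.35 in ICH against sham, 0.59 in feb against ICH, and 0.79 in feb against sham. Over all genes tested the medians were 0.08, -0.01, and 0.05. The signs were not uniform, with 6, 8, and 8 of the 9 above 0. The 3 genes below 0 in ICH against sham were Tsc22d3 (-0.09), Mt1 (-0.12), and Mt2 (-0.28), and in the other 2 comparisons it was Nr3c1 (-0.27 and -0.24).

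The deviations of each mouse from its group mean were not used to choose Hif3a, and the other genes were compared with it on these. In the 9 mice the deviations of Pdk4 had r = 0.87 with those of Hif3a (exact permutation within groups, two-sided p = 0.00463, the smallest that the 216 arrangements give, and 0.0417 adjusted over the 9 relations computed), and rho was 0.83 (exact p = 0.00463, adjusted 0.0417). For Sgk1, r was 0.87 (exact permutation p = 0.0185, adjusted 0.0556) and rho 0.90 (exact p = 0.00926, adjusted 0.0417). For Plin4, r was 0.86 (exact permutation p = 0.0139, adjusted 0.0556) and rho 0.87 (exact p = 0.0231, adjusted 0.0694). The mice with the highest Hif3a in their group, sham 3, ICH 1, and feb 3, were thus also the highest of their group in these 3 genes. Fkbp5, Zbtb16, Mt1, and Tsc22d3 had r of 0.69, 0.63, 0.56, and 0.55, Mt2 had 0.21, and Nr3c1 had -0.24, with adjusted exact permutation p of 0.26 to 0.62. Of the Hif3a deviations, those of ICH 1 and feb 2 were farthest from the median deviation. Without these mice r was 0.84 for Pdk4, 0.65 for Sgk1, 0.53 for Plin4, and 0.04 for Fkbp5, so the relation of Fkbp5 rested on them. It was then 0.66 for Mt1, 0.61 for Mt2, 0.47 for Tsc22d3, 0.33 for Zbtb16, and -0.23 for Nr3c1, so r rose for Mt1 and Mt2. With any 1 mouse left out, 0 of the 9 relations had an adjusted p under 0.05. The smallest p of the 72 arrangements is then 0.0139, and at least 3 genes would have to reach it. The r of Pdk4 was 0.76 to 0.97 over these omissions, that of Sgk1 0.76 to 0.95, and that of Plin4 0.80 to 0.91, and it was lower without feb 2 for Fkbp5 (0.20), Zbtb16 (0.31), and Mt1 (0.06). All of these genes were read in the same libraries. The 9 genes were chosen with earlier results of these data known, so the p-values do not come from an independent choice. They cover these relations only, and how many of all genes are as alike to Hif3a within groups is not given here.

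**Figure D3:**
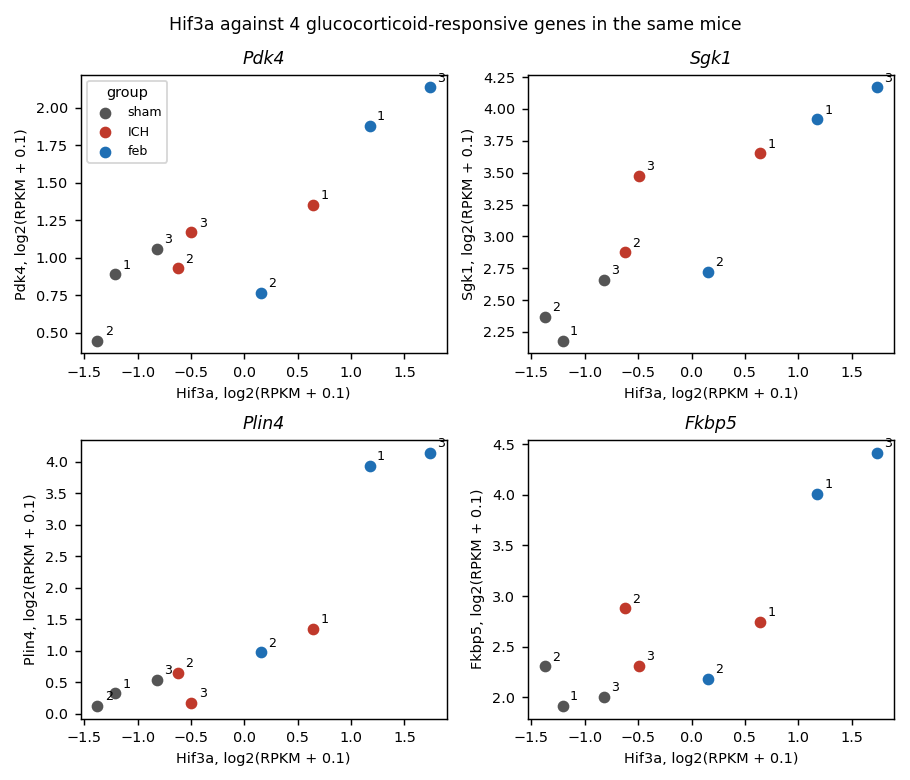
Log2(RPKM + 0.1) of Hif3a (horizontal axis) against that of Pdk4, Sgk1, Plin4, and Fkbp5 (vertical axes) in the same 9 mice, colored by group and numbered by mouse. In each panel feb 1 and feb 3 lie at the upper right, while feb 2 has more Hif3a than 5 other mice but levels of the partner gene near those of the sham and ICH mice.

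Over the 9 mice without centering, the genes most like Hif3a among 17660 with a mean RPKM of at least 1 were Fam155a (r = 0.97), Rpl22-ps1 (0.97), 3010026O09Rik (0.96), Ppp1r14c (0.96), and Itpk1 (0.96). These are descriptions of a match with a gene chosen for its group pattern. Plin4 ranked 38 on this list, Sgk1 66, Pdk4 88, Zbtb16 143, and Fkbp5 172, while Mt1 ranked 693, Mt2 2470, Tsc22d3 2944, and Nr3c1 16062. The most alike genes varied over a smaller range than Hif3a. Fam155a ran from 13.2 to 21.8 RPKM, whereas the highest Hif3a value was 11.4 times the lowest.

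A list of 25 other genes known to be induced by glucocorticoids had the same split. In 15 of the 25, feb 1 and feb 3 were both above each of the other 7 mice (60%, against 6.44% of all genes). This is again a description and not a test. The list was chosen with earlier results of these data known, and feb 1 and feb 3 were picked out after their values were seen. The median log2 difference from the sham mean over the 25 genes was 0.50, 0.26, and 0.34 in ICH 1, ICH 2, and ICH 3, and 0.73, 0.11, and 1.05 in feb 1, feb 2, and feb 3. On this measure feb 2 lay below all ICH mice. The median log2 fold changes by group were 0.38 in ICH against sham, 0.16 in feb against ICH, and 0.69 in feb against sham.

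Of these 25, 0 were called in ICH against sham (1.46% of all genes were called higher), with 4 higher by the p-value alone, Per1, Klf9, Bcl6, and Mertk (7.88% of all genes). In feb against ICH 1 was called higher, against 1.38% of all genes, and in feb against sham 4 were, against 1.59%. None of the 25 passed adjustment in any comparison by limma, with 0.26 as the lowest adjusted p. Cdkn1a, the inhibitor of cyclin-dependent kinases p21, had 0.964 to 1.34 RPKM in sham, 1.15 to 1.93 in ICH, and 7.31, 1.18, and 10.7 in feb, and was called in feb against sham (log2 fold change 1.93, SE 0.68). Sult1a1, a sulfotransferase that acts on phenols, had 4.41 to 4.81 RPKM in sham, 4.89 to 8.65 in ICH, and 17.9, 6.28, and 21.8 in feb. It was called in feb against ICH (1.08, SE 0.42) and in feb against sham (1.51, SE 0.42). Arrdc2, an arrestin domain gene, had 9.81, 2.81, and 12.9 RPKM in feb, against 2.21 to 3.04 in sham, and Map3k6, a stress kinase, had 2.31, 0.783, and 2.73, against 0.341 to 1.13. Both were called in feb against sham. In all 4 of these genes feb 2 was far below its group mates and near the ICH values.

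The 2 most abundant genes of this list behaved alike at a smaller scale. Fam107a, an actin-associated gene that responds to stress in brain, had 53.2 to 66.4 RPKM in sham, 60.7 to 85.4 in ICH, and 115, 70.3, and 125 in feb. Rhob, a small GTPase, had 41.1 to 43.7, 40.8 to 48.7, and 52.0, 46.0, and 52.9. Neither was called in any comparison. Irs2, Gjb6, and Mfsd2a resembled the metallothioneins in that all feb mice were above all ICH mice, a count of 3 of 25 beside 7.04% of all genes.

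Genes tied to the receptor or its hormone were read for the same split. These were 14 genes for a related receptor (Nr3c2), chaperones such as Hsp90aa1 and Hsp90ab1, coregulators, and steroid release and handling, such as Hsd11b1. In 0 of the 14 were feb 1 and feb 3 on top, against 6.44% of all genes. In the 3 comparisons 0 were called, against 1.38% to 1.59% of all genes called higher and 0.613% to 1.07% called lower. In a list this short, counts of 0 are near those shares and do not set it apart. Hsp90ab1, the most abundant, had 537 to 706 RPKM in sham, 495 to 595 in ICH, and 582, 653, and 576 in feb. Hsp90aa1 had 228 to 370, 215 to 240, and 246, 303, and 214. In both of these genes feb 2 was the highest of the feb mice. The median log2 fold changes of the 14 genes were -0.13, -0.03, and -0.003.

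The other HIF genes had no steps of the size seen in Hif3a. The group means of Arnt (5.56, 5.84, and 5.97 RPKM) and Egln2 (20.3, 20.5, and 21.3) also went up from sham to ICH to feb, by small amounts. Of 8 genes of the HIF system, 0 were called in any comparison, against 1.38% to 1.59% of all genes called higher and 0.613% to 1.07% called lower. In 0 of them were feb 1 and feb 3 on top, against 6.44% of all genes. Among so few genes, counts of 0 are near those shares. Epas1, which encodes HIF-2α, had 40.2 to 45.6 RPKM in sham, 32.0 to 40.8 in ICH, and 39.4, 42.1, and 36.9 in feb, and Arnt2, a dimer partner, had 20.9 to 23.2, 23.7 to 28.2, and 21.5, 21.4, and 26.0. Hif1a ranged from 16.4 to 20.5 RPKM over all 9 mice. Per exon length, the mean RPKM over the 9 mice was 1.12 for Hif3a and 1.03 for Egln3, and it was higher than both in the other 7 genes of the list.

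Of 12 hypoxia targets, 0 were called, against 1.38% to 1.59% of all genes called higher and 0.613% to 1.07% called lower. Only 1, Slc2a1, the glucose transporter of the blood-brain barrier, had feb 1 and feb 3 on top (8.33%, against 6.44% of all genes). Both counts are near the shares of all genes. Slc2a1 had 15.1 to 18.5 RPKM in sham, 16.9 to 20.1 in ICH, and 26.4, 20.2, and 26.0 in feb. Vegfa, the vascular growth factor, had 23.7 to 26.7 in sham, 19.5 to 28.0 in ICH, and 15.1, 24.0, and 16.3 in feb, so that feb 1 and feb 3 were its lowest mice. Pgk1, a glycolytic enzyme, had 39.2 to 43.7, 38.2 to 44.2, and 38.4, 36.8, and 34.5. The median log2 fold changes of the 12 genes were 0.09, -0.05, and -0.05.

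**Figure D4:**
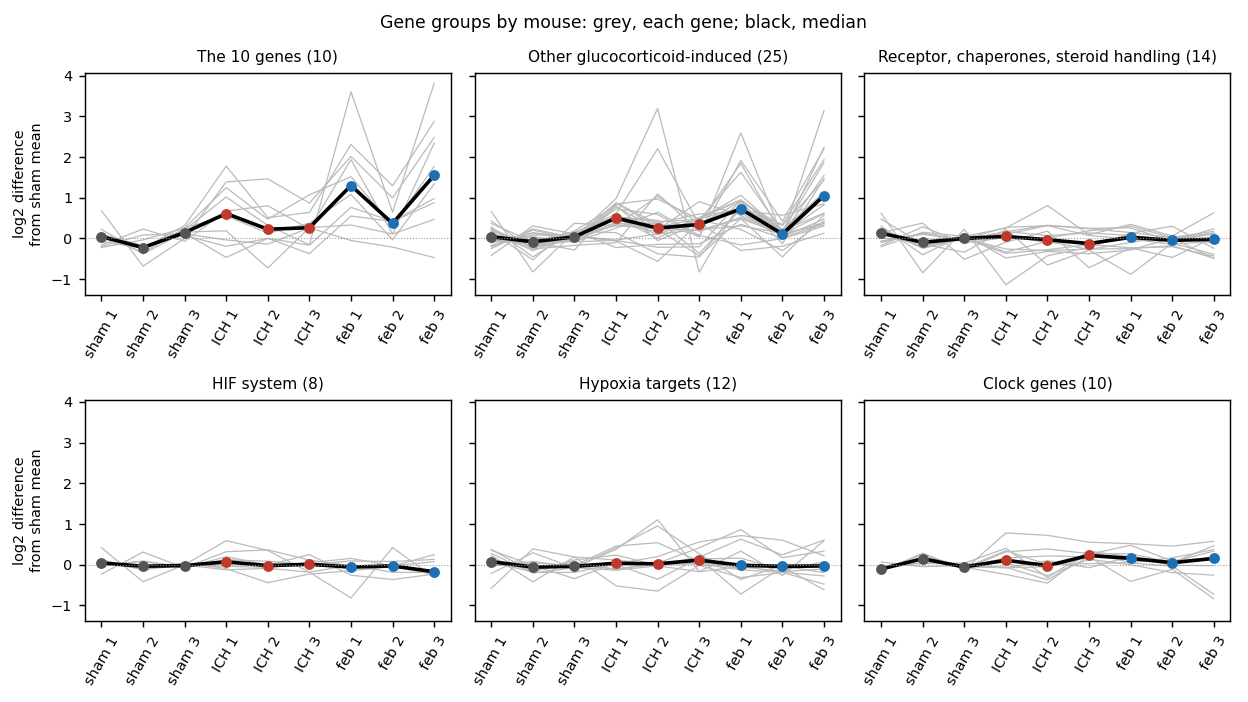
Log2(RPKM + 0.1) of each gene minus its mean in the sham mice (vertical axis), for the 9 mice in order of group (horizontal axis) and 6 groups of genes, with a grey line per gene and the median in black. In the panel of the 25 other glucocorticoid-induced genes the medians of feb 1 and feb 3 are 0.73 and 1.05 and that of feb 2 is 0.11, while the medians of the HIF panel lie between -0.17 and 0.07 and those of the clock panel between -0.10 and 0.23 over the 9 mice. The clock median covers single genes that went opposite ways. In feb 3, Dbp and Hlf were at their lowest of the 9 mice, and Tef and Per3 at their highest.

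Relatives of the members from the same gene families were read beside them. Of 15 such genes, 14 passed the filter (all but Plin1), and 0 were called, against 1.38% to 1.59% of all genes called higher and 0.613% to 1.07% called lower. In 3 (Pdk2, Sgk3, and Tsc22d4) feb 1 and feb 3 were on top (21.4%, against 6.44% of all genes). Sgk3, a kinase related to Sgk1, had 0.740 to 1.27 RPKM in sham, 1.05 to 1.14 in ICH, and 2.33, 0.811, and 2.75 in feb. Mt3, the metallothionein made mainly in brain, had 28.4 to 33.0, 25.4 to 29.4, and 33.5, 33.0, and 28.8, and so lacked the gap between feb and ICH that Mt1 and Mt2 had. Fkbp4, the FKBP52 counterpart of Fkbp5, had 59.6 to 83.6, 54.7 to 63.6, and 60.1, 61.2, and 52.2.

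The hour of collection is not given, and 10 clock genes that follow the time of day were read as well. The strongest was Per2, a clock repressor, with 5.30 to 7.28 RPKM in sham, 8.78 to 10.3 in ICH, and 8.57, 8.21, and 8.93 in feb. Its log2 fold change was 0.69 (SE 0.13, adjusted p 0.27 by limma) in ICH against sham and 0.52 (SE 0.13, adjusted p 0.56) in feb against sham, and neither reached a 2-fold change. In 3 of the 10 (Per2, Nr1d1, and Tef) all values of ICH were above those of sham, against 13.2% of all genes, and the same 3 had a p under 0.05, against 7.88%. By the study's criteria 0 of the 10 were called, against 1.38% to 1.59% of all genes called higher and 0.613% to 1.07% called lower. In 0 of the 10 were feb 1 and feb 3 both above the other 7 mice, against 6.44% of all genes. Among 10 genes, counts of 0 are near those shares. Dbp had 18.1 to 22.2 RPKM in sham, 15.4 to 22.9 in ICH, and 15.0, 18.4, and 11.1 in feb. Its lowest mice were thus feb 1 and feb 3. Nr1d1, another repressor of the clock, had 36.3 to 42.0 RPKM in sham, 42.9 to 44.4 in ICH, and 41.5, 39.3, and 42.1 in feb, and Tef had 15.7 to 20.8, 21.1 to 22.8, and 21.1, 18.1, and 24.1. The choroid plexus and blood marker sums of the feb mice are given above, and the summed astrocyte markers were 412, 280, and 373 RPKM in the feb mice, 292 to 434 in sham, and 307 to 813 in ICH. The part of tissue makeup and of the hour of collection in the split of the feb mice was not tested.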

How the data were processed

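The authors trimmed reads with Trimmomatic 0.36, built a consensus of the reads that share a UMI, mapped the consensus reads to GRCm38, counted exon reads with featureCounts of Subread 1.5.1, and deposited RPKM values, 1 column per mouse. The annotation release and the use of strand are not given in the sources used here. Whole reads were recovered from 100% of the values, which gave the depth, 23065757 to 29538009 reads. At these depths, 3 reads on a 1 kb transcript were worth 0.102 to 0.130 RPKM.

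Groups came from the sample labels. The members and gene lists were chosen with earlier results of these data known. The package limma 3.58.1 in R 4.3.3 (functions lmFit and eBayes, trend switched on) was run on log2(RPKM + 0.1), a scale that understates changes of low genes, for the 29025 genes that reached 0.1 RPKM in 3 or more mice. The 9 mice entered 1 model without a block, and p-values were adjusted by Benjamini-Hochberg over these genes. The study's own tool for differential expression was not used, and the recovered reads were analysed with voom. The code was tested on artificial reads. With 3 mice against 3, an exact permutation test of a single gene cannot go below 0.1, so none was run. The limma p-values set the difference of group means against the spread within groups, pooled over the 9 mice. Relations with Hif3a were tested by exact permutation within groups.

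The text names all 10 members, of each list the genes called and the 2 most abundant, and the 5 genes most like Hif3a. Slc2a1, Sgk3, Hif1a, Per2, and the genes given for single features of a list were named after their values were seen. Gene ends were read from the table, promoters from RefSeq windows of GRCm38.p6, and tables and plots were made with Python. Alternatives were the pseudocount, the filter, the scaling, a fit of only 2 groups, the replicate block, voom on recovered reads, and leaving out each mouse. Counts by adjusted p and the values of Hif3a under these settings were added after seeing the data.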

Additional observations from a re-analysis of the deposited data

How the results depend on the processing

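Over 18 alternative settings, 464 of 486 fold changes of the members kept their direction and their call, 8 lost the call, 6 gained it, and 8 reversed. The reversals were small values. Tsc22d3 in ICH against sham (-0.09) ranged from -0.28 to 0.23 with 1 mouse left out, and was 0.02 without sham 1. Nr3c1 in ICH against sham (0.03) was -0.084 with equal medians, -0.011 with quantile normalization, -0.039 with voom, and -0.087 to 0.11 with 1 mouse left out. Sgk1 in feb against ICH (0.27) ranged from -0.013 without feb 3 to 0.71 without feb 2. Within groups, r with Hif3a ranged from -0.15 to 0.66 for Mt2, from -0.47 to 0.12 for Nr3c1, from 0.06 to 0.89 for Mt1, from 0.20 to 0.84 for Fkbp5, and from 0.31 to 0.79 for Zbtb16. Leaving out 1 mouse at a time, the number of the 9 genes called was 0 to 2 in ICH against sham, 0 to 3 in feb against ICH, and 2 to 5 in feb against sham, and without the fold criterion it was 2, 3, and 7. The number of genes related to Hif3a within groups at an adjusted p under 0.05 was 1, 2 with equal medians, and 3 with quantile normalization. It was 0 with any 1 mouse left out, where at least 3 genes must reach the smallest p to pass. Equal medians moved the median of all genes in ICH against sham from 0.08 to -0.02. With the replicate block the numbers called were 1, 1, and 4, unchanged. The replicate numbers do not appear to pair the mice, since deviations of same-numbered mice had correlations of -0.33 to 0.03 and 0 of 9 mice correlated best with its own number. Hif3a in sham 2 rested on 50 reads, which limits its ratios. The intervals rest on 1 moderated estimate of spread per gene, pooled over the 9 mice. The split of the feb mice therefore also widens the intervals of ICH against sham. For Fkbp5 the SD of log2(RPKM + 0.1) was 1.19 in feb, 0.297 in ICH, and 0.205 in sham, and the SE was 0.49 in each comparison. By the p-value of limma alone, the count in ICH against sham was 3 in place of 2 in the fit of only the 2 groups, and also without feb 2.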
